A study of Mus musculus with 6 samples.

Results

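Interferon-stimulated genes are genes whose transcription rises when a cell receives an interferon signal. A list of 41 of them was described in early thymic progenitors that lack Tcf1 and in Tcf1-/+ progenitors. Where the annotation of the Mouse Genome 430 2.0 array gave a gene several probe sets of its own, the one with the highest 6-array average stood for it. This found 39 of the 41 members, among 18193 genes in all. Isg15 and Ifi44 had no probe set of their own in the annotation used and were not analysed here. Messenger RNA was measured in thymocytes of the DN1 stage, sorted as Lin-CD44+CD25-kit+, from C57Bl/6 mice killed at 10 weeks of age. There were 3 arrays of Tcf1-/- and 3 of Tcf1-/+ cells. The titles give Tcf1-/+ for the controls while another label field reads wild type, and they are called Tcf1-/+ here. Tcf1, encoded by Tcf7, is a DNA-binding factor of T-lineage specification, and its own transcript was not analysed here, so it gave no check of the genotypes. How Tcf1 was inactivated and whether animals were pooled for an array are not stated in the labels, so the p-values measure the spread between these arrays. About 3 ng of RNA came from 1000 cells and was amplified before hybridization.

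Type I interferons bind the receptor chains Ifnar1 and Ifnar2, and the kinases Jak1 and Tyk2 then relay the signal. Stat2 and Irf9 are subunits of the complex ISGF3, which binds interferon-stimulated response elements, short DNA motifs in the promoters of the target genes. The products detect viral nucleic acid, degrade RNA, block translation, restrict virus entry and budding, or amplify and terminate the signal. Progenitor and stem-like cells are known to hold part of this set at a steady level without infection.

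To show where the interferon-stimulated response element lies, promoter stretches are given for members whose results are set against each other here. RefSeq windows of the mouse build GRCm38.p6, from 250 bases before to 50 bases after each annotated start, were found for 30 of the 39 members. They were searched on both strands for the element's core, which is GAAA repeated after 2 bases of any kind. It lay in a window of 13 of the 30 members (43.3%), against 3.99% of all genes with such windows. A looser motif, TTCNNNGAA, the core of the gamma-activated sequence, lay in 9 of 30 members (30.0%) against 9.55% of all genes. The TCF/LEF core CTTTGAT, with CTTTGTT also accepted as a variant and so too CTTTGAA, lay in 4 of 30 members (13.3%) against 15.7% of all genes. Matches of different motifs were allowed to overlap. The lines below give the 160 bases that end just before the start, 5′ to 3′ along the gene's strand, with each match to the response element core in capitals.
Oas3: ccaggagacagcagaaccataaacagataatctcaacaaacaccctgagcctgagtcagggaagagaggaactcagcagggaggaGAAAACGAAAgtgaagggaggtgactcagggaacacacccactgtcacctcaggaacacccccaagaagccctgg
Ifit3: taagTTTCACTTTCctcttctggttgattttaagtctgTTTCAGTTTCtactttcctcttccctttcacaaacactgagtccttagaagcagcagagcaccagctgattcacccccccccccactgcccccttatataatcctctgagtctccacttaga
Rsad2: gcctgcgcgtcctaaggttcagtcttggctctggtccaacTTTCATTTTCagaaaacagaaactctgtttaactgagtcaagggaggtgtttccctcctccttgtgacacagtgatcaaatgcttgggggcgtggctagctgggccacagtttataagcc
Ifit1: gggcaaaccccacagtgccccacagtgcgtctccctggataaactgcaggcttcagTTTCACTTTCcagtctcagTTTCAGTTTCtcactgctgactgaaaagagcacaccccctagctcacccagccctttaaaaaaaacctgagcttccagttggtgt
Oas1a: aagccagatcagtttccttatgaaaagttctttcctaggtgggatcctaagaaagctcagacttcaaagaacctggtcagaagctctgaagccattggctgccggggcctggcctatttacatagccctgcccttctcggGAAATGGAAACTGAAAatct
Cmpk2: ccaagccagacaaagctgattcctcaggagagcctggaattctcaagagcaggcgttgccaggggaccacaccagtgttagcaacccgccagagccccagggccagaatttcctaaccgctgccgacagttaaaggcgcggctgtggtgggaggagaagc
Ifi35: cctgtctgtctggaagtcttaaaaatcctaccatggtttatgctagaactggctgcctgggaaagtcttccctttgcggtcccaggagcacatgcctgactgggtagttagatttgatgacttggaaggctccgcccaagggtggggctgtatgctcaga
These stretches lie at chr5:120777660-120777819 on the minus strand for Oas3, chr19:34583369-34583528 on the plus strand for Ifit3, chr12:26456453-26456612 on the minus strand for Rsad2, chr19:34640729-34640888 on the plus strand for Ifit1, chr5:120907526-120907685 on the minus strand for Oas1a, chr12:26469055-26469214 on the plus strand for Cmpk2 and chr11:101448252-101448411 on the plus strand for Ifi35. Oas3 and Ifit3 hold the core and had genotypes that did not overlap. The same held for Eif2ak2, whose match lies after the start and so outside the 160 bases shown for other members. Ifit1, Oas1a and Rsad2 hold it too, and their genotypes overlapped. Cmpk2 and Ifi35, with differences among the largest of the set, hold no match to the response element core in the window. Over the members, the median difference between genotypes was 0.30 log2 units for the 13 with the core and 0.59 for the 17 without it. Of the 8 members with an unadjusted p under 0.05 in limma, 5 had a window. Zbp1, Rtp4 and Dhx58 had no window, so these medians leave them out. A match is a string of letters and not a shown binding site, and other annotated or distal elements were not searched.

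The deposited values are on a log2 scale, on which 1 unit is a factor of 2. Values of a gene are listed for replicates 1 to 3 of each genotype. Each difference below subtracts the Tcf1-/+ average from that of Tcf1-/-, in log2 units, with the standard error (SE) and p-value from limma fitted over all 45037 probe sets. The level of background was set at 5.21, the 95th percentile of 27 control probe sets for bacterial transcripts that were not spiked in. None of the 39 members had both genotype means below it. Tcf1-/- replicate 2 correlated with the other arrays between 0.870 and 0.893, whereas all other pairs lay between 0.913 and 0.933. Xist, which is expressed in female cells, was at 13.18 and 12.87 on Tcf1-/- replicates 2 and 3, and the mean of 3 Y-linked genes was at 8.49 and 8.42 on the same arrays. The Y-linked mean was 9.39 on Tcf1-/+ replicate 2 and between 4.01 and 5.0 on the other 3 arrays. On those 3, Tcf1-/- replicate 1 and Tcf1-/+ replicates 1 and 3, Xist was at 13.45, 13.39 and 13.44. On Tcf1-/+ replicate 2 Xist was at 5.12. Only Tcf1-/- replicates 2 and 3 thus had high signal of both kinds, and whether animals of both sexes were pooled is not stated. Results are therefore also given without single arrays and on the arrays of low Y-linked signal, which were 1 of Tcf1-/- and 2 of Tcf1-/+.

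The members as a set had higher levels on the Tcf1-/- arrays. The mean of the 39 members was 8.44, 9.08 and 8.99 on Tcf1-/- replicates 1 to 3 and 8.21, 8.23 and 8.14 on Tcf1-/+ replicates 1 to 3. All Tcf1-/- arrays lay above all Tcf1-/+ arrays, replicate 1 by the smallest margin. After each member was centred on its 6-array mean, the genotype means were 0.32 ± 0.35 (SD, n = 3) and -0.32 ± 0.04 (SD, n = 3), a difference of 0.64. The Tcf1-/+ arrays agreed within 0.09 log2 units, while the Tcf1-/- arrays spanned 0.65. No p-value is given for this mean, because the members were chosen with results of these arrays known. On the arrays of low Y-linked signal alone the difference was 0.26. Without Tcf1-/- replicate 2 it was 0.52. In a cell mixture, more cells of a kind and more RNA per cell cannot be told apart.

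**Figure D1:**
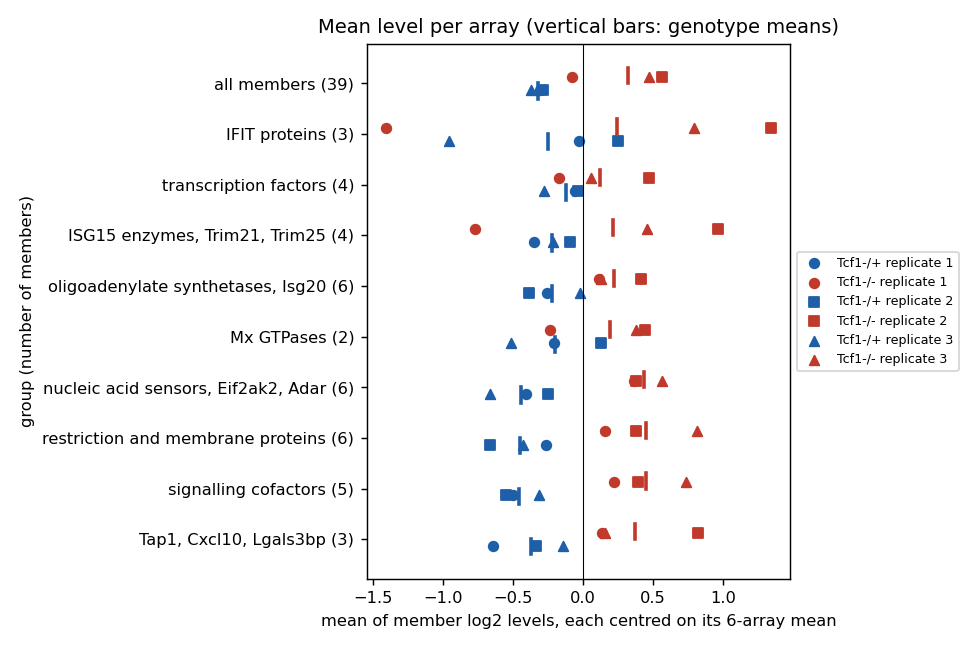
Mean log2 level of all 39 members and of 9 groups by role on each array (horizontal axis, each member centred on its mean over the 6 arrays; groups on the vertical axis with their number of members). Symbols mark replicates, colours genotypes and vertical bars genotype means. For all members, Tcf1-/- replicate 1 lies at -0.08, between the Tcf1-/+ arrays at -0.37 to -0.28 and the other Tcf1-/- arrays at 0.47 and 0.57.

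By count, 32 of 39 members had a higher Tcf1-/- mean (82.1%), where 54.3% of all genes did. The median difference was 0.52, against 0.04 for all genes. Unadjusted p was under 0.05 for 8 members, all higher in Tcf1-/-, which is 20.5% of the members where 3.38% of all genes were higher at that level and 3.4% were lower. The 3 arrays of each genotype did not overlap for 10 members, all higher (25.6%), against 7.22% of all genes higher and 4.94% lower. A difference of at least 1 log2 unit upward was met by 11 members, where 4.3% of all genes met it, and downward by 0 members, where 4.83% of all genes did. No member passed the adjusted threshold of 0.05, and the share of all probe sets that passed it was 0%, with 6.48% at an unadjusted p under 0.05. Exact permutation of 3 against 3 arrays cannot give a p below 0.1.

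**Figure D2:**
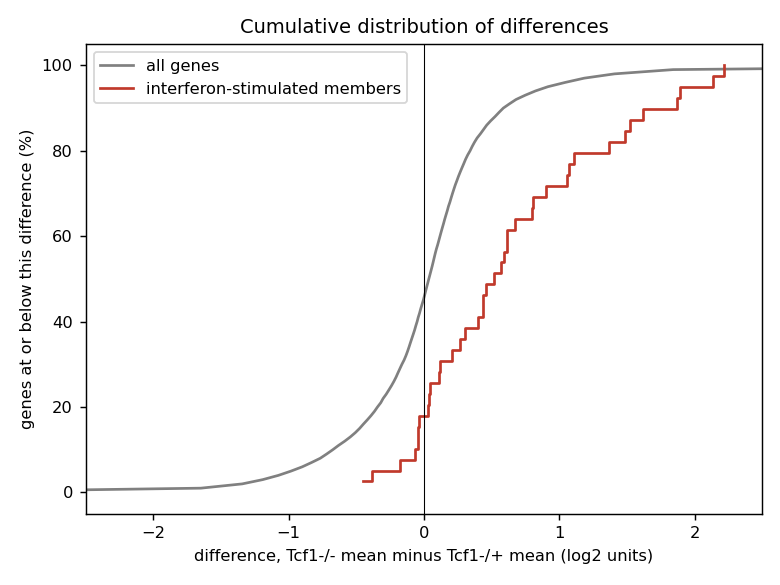
Share of genes (vertical axis, %) with a difference at or below the value on the horizontal axis (Tcf1-/- mean minus Tcf1-/+ mean, log2 units), for the 39 members and for all 18193 genes. The member curve lies to the right of the curve of all genes, with medians of 0.52 and 0.04.

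The counts moved with single arrays. Without Tcf1-/- replicate 1, 14 members had an unadjusted p under 0.05 and 19 did not overlap in the higher direction, where 3.83% and 12.9% of all genes did. Without Tcf1-/- replicate 3, 2 members did not overlap in the lower direction, where 9.98% of all genes did. On the arrays of low Y-linked signal, 23 of 39 members were higher (52.0% of all genes), and 19 lay above and 11 below both Tcf1-/+ arrays, where 36.2% and 31.6% of all genes did. The median difference on these arrays was 0.16, and Usp18, Herc6 and Xaf1 were among the members whose sign turned there.

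Among the cytosolic nucleic acid sensors, the 3 members of smallest unadjusted p were Dhx58, Zbp1 and Eif2ak2, and all had higher levels on every Tcf1-/- array. Zbp1, a sensor of Z-form nucleic acid that can trigger cell death, was at 8.38, 8.76 and 8.60 in the Tcf1-/- samples against 6.05, 7.68 and 5.59 in Tcf1-/+. The Tcf1-/- arrays lay within 0.38 log2 units of one another, and the spread was mostly within Tcf1-/+, where replicate 2 was the highest. The difference was 2.14 (SE 0.55), a ratio of 4.4, with a 95% confidence interval of 0.79 to 3.48 on the log2 scale and an adjusted p of 0.577 in limma. Dhx58, which encodes LGP2, a helicase that modulates RNA sensing, was at 8.38, 7.67 and 7.55 in the Tcf1-/- samples against 7.01, 6.36 and 6.13 in Tcf1-/+. Here Tcf1-/- replicate 1 was the highest of the 6 arrays, and the difference was 1.37 (SE 0.35) with an interval of 0.52 to 2.21. Eif2ak2, the kinase PKR that stops translation on double-stranded RNA, was at 10.82, 10.22 and 10.80 in the Tcf1-/- samples against 9.40, 9.63 and 10.09 in Tcf1-/+. The groups were separated by 0.12 log2 units, and the difference was 0.90 (SE 0.29), a ratio of 1.87. Neither of the main RNA helicase sensors shared this pattern. Ddx58, which encodes RIG-I, was at 7.33, 9.54 and 8.76 in the Tcf1-/- samples against 7.80, 8.11 and 7.89 in Tcf1-/+, so that Tcf1-/- replicate 1 was the lowest array and replicates 2 and 3 the highest. Ifih1, which encodes MDA5, differed by -0.18 (SE 0.47) and Adar, the RNA-editing enzyme that marks cellular RNA as self, by 0.44 (SE 0.32), both with overlap.

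The group of membrane, restriction and nucleotide-metabolism proteins held the member of largest difference. Cmpk2, a mitochondrial nucleotide kinase, was at 7.99, 8.65 and 8.57 in the Tcf1-/- samples against 6.36, 5.34 and 6.84 in Tcf1-/+. Every Tcf1-/- array was more than 1 log2 unit above every Tcf1-/+ array, with a gap of 1.15. Its difference was 2.22 (SE 0.43), a ratio of 4.66, with an interval of 1.16 to 3.28 and an adjusted p of 0.446 in limma. Rsad2, which encodes the antiviral enzyme viperin and is the direct neighbour of Cmpk2 on chromosome 12, was at 7.39, 8.40 and 9.16 in the Tcf1-/- samples against 8.12, 7.04 and 8.41 in Tcf1-/+. The genotypes overlapped for Rsad2, with a difference of 0.46 (SE 0.57). Rtp4, a receptor-transporting protein with antiviral activity, was at 9.93, 9.54 and 10.08 in the Tcf1-/- samples against 8.60, 8.12 and 8.26 in Tcf1-/+. It had the smallest unadjusted p of the set, 0.000758, with a difference of 1.52 (SE 0.24), an interval of 0.93 to 2.12 and an adjusted p of 0.407 in limma. Both genotypes were tight for Rtp4, at 9.85 ± 0.28 (SD, n = 3) against 8.33 ± 0.25 (SD, n = 3). The remaining 4 members of the group overlapped between genotypes. Samd9l, a restriction factor that blocks translation, differed by 0.57 (SE 0.54), Bst2, the virion tether tetherin, by 0.44 (SE 0.31), and Ifitm3, which blocks virus fusion in endosomes, by 0.20 (SE 0.26). Ifitm3 lay between 11.58 and 12.37 on all 6 arrays.

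**Figure D3:**
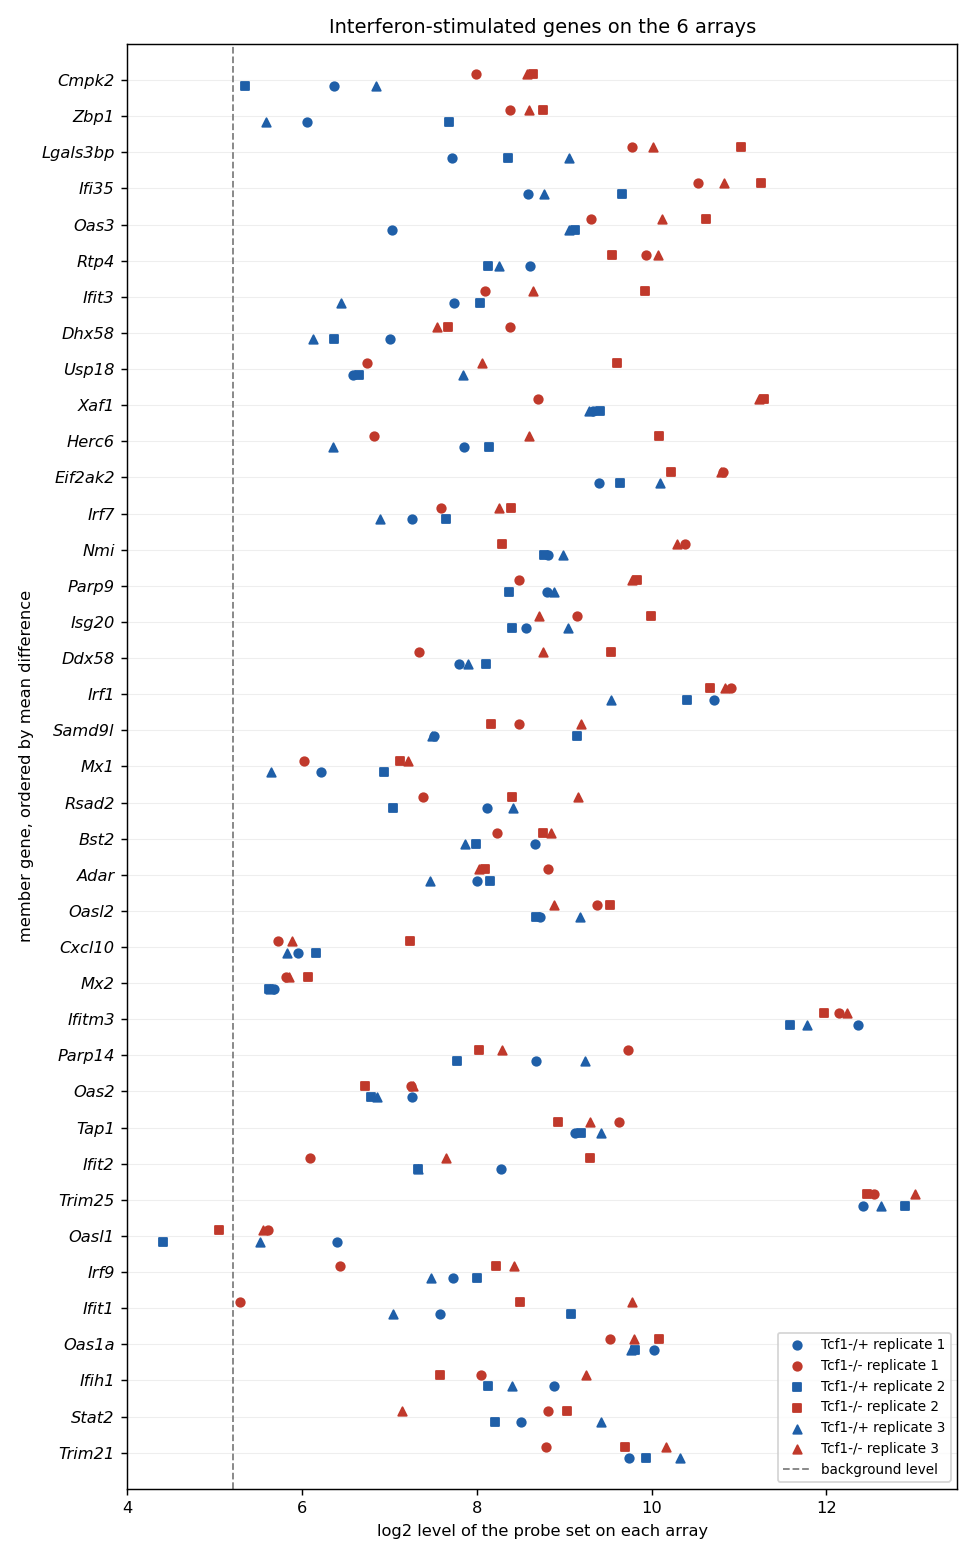
Log2 level of the probe set of each of the 39 members (vertical axis, ordered by difference) on each array (horizontal axis), with colours for genotype and symbols for replicate. The dashed line is the background level of 5.21. For Cmpk2, at the top, the genotypes are 1.15 apart, while for Ifit1, near the foot, Tcf1-/- replicate 1 is the lowest array and replicate 3 the highest.

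All 5 signalling cofactors had higher Tcf1-/- means. Ifi35, which forms a complex with Nmi, was at 10.53, 11.26 and 10.83 in the Tcf1-/- samples against 8.59, 9.66 and 8.76 in Tcf1-/+. The lowest Tcf1-/- array was 0.87 above the highest Tcf1-/+ array, and the difference was 1.87 (SE 0.36), a ratio of 3.65, with an adjusted p of 0.446 in limma. Nmi itself was at 10.38, 8.29 and 10.29 in the Tcf1-/- samples against 8.81, 8.76 and 8.99 in Tcf1-/+. Tcf1-/- replicates 1 and 3 lay above the controls and replicate 2 below them, and the difference was 0.80 (SE 0.58). Xaf1, an antagonist of the apoptosis inhibitor XIAP, was at 8.70, 11.29 and 11.22 in the Tcf1-/- samples against 9.33, 9.40 and 9.28 in Tcf1-/+. The Tcf1-/+ arrays agreed within 0.13 log2 units, with replicates 2 and 3 of Tcf1-/- far above them and replicate 1 below, and the difference was 1.07 (SE 0.71). Parp9 and Parp14, ADP-ribosyltransferases of the interferon response, differed by 0.68 (SE 0.42) and 0.11 (SE 0.58). Both overlapped between genotypes.

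Of the secreted and antigen-presentation members, Lgals3bp, a secreted glycoprotein that binds galectins, was at 9.77, 11.03 and 10.01 in the Tcf1-/- samples against 7.71, 8.36 and 9.06 in Tcf1-/+. Its groups did not overlap, with a difference of 1.89 (SE 0.48), an interval of 0.73 to 3.06 and an adjusted p of 0.558 in limma. Tap1, a subunit of the peptide transporter for class I molecules, differed by 0.04 (SE 0.25), and the chemokine Cxcl10 by 0.30 (SE 0.43). Cxcl10 was at 7.24 on Tcf1-/- replicate 2 and between 5.73 and 6.16 on the other 5 arrays.

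The oligoadenylate synthetases, which make the second messenger that activates the nuclease RNase L, were not alike. Oas3 was at 9.30, 10.62 and 10.12 in the Tcf1-/- samples against 7.03, 9.12 and 9.05 in Tcf1-/+. The groups did not overlap, but Tcf1-/+ replicate 1 lay far below the other controls. The difference was 1.61 (SE 0.66), and its interval of -0.0032 to 3.23 includes 0. Without that array the difference was 0.93. Oas2, the neighbour of Oas3 on chromosome 5, differed by 0.11 (SE 0.25) and Oas1a by -0.06 (SE 0.23). The related genes Oasl1 and Oasl2 differed by -0.04 (SE 0.52) and 0.40 (SE 0.27), and Isg20, an RNA exonuclease, by 0.61 (SE 0.39). All 5 overlapped between genotypes.

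The IFIT proteins bind foreign RNA ends and block its translation. Ifit1 and Ifit2 varied more among the Tcf1-/- arrays than between genotypes, whereas Ifit3 did not overlap. Ifit3 was at 8.09, 9.92 and 8.64 in the Tcf1-/- samples against 7.73, 8.03 and 6.44 in Tcf1-/+. The groups were separated by 0.06 log2 units, with a difference of 1.48 (SE 0.62) and an interval of -0.03 to 2.99 that includes 0. Ifit1 was at 5.28, 8.49 and 9.77 in the Tcf1-/- samples against 7.58, 9.07 and 7.04 in Tcf1-/+. Ifit2, the neighbour of Ifit3 on chromosome 19, was at 6.09, 9.30 and 7.65 in the Tcf1-/- samples against 8.27, 7.32 and 7.33 in Tcf1-/+. For both, Tcf1-/- replicate 1 was the lowest of the 6 arrays, and the differences were -0.05 (SE 1.21) and 0.04 (SE 0.82). Without that replicate the difference of Ifit1 was 1.24, and without Tcf1-/+ replicate 2 it was 0.54, so its sign turned with either array.

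Usp18, which removes ISG15 from proteins and brakes the type I receptor, was at 6.74, 9.60 and 8.06 in the Tcf1-/- samples against 6.58, 6.65 and 7.84 in Tcf1-/+, a difference of 1.11 (SE 0.77). Herc6, the main ligase that attaches ISG15 in mice, was at 6.83, 10.08 and 8.60 in the Tcf1-/- samples against 7.86, 8.14 and 6.35 in Tcf1-/+, a difference of 1.05 (SE 0.91). In both genes Tcf1-/- replicate 2 was the highest array and replicate 1 lay within the range of the controls. The ubiquitin ligase genes Trim25 and Trim21, whose products act on RIG-I and on antibody-bound virus, differed by 0.03 (SE 0.25) and -0.45 (SE 0.39). Trim21 had the lowest difference of all 39 members.

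The GTPase genes Mx1 and Mx2 belong to a family whose proteins can act against the entry of virus genomes into the nucleus or their copying. Only their transcripts were measured here, and not whether these mice make a working protein. Mx2 was at 5.81, 6.07 and 5.85 in the Tcf1-/- samples against 5.68, 5.62 and 5.63 in Tcf1-/+. The groups did not overlap, though the difference was only 0.26 (SE 0.18), and the values lay close to the background level. Mx1 differed by 0.52 (SE 0.47) with overlap.

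Transcription factors of the response were led by Irf7, which amplifies interferon production. It was at 7.59, 8.39 and 8.25 in the Tcf1-/- samples against 7.26, 7.65 and 6.90 in Tcf1-/+. Tcf1-/- replicate 1 lay just below Tcf1-/+ replicate 2, so the groups overlapped, with a difference of 0.81 (SE 0.32), an unadjusted p of 0.0433 and an adjusted p of 0.754 in limma. Irf1, an activator shared by the type I and type II responses, was at 10.91, 10.67 and 10.84 in the Tcf1-/- samples against 10.71, 10.41 and 9.53 in Tcf1-/+. Its Tcf1-/- arrays agreed within 0.24 log2 units, and the difference was 0.59 (SE 0.34). The ISGF3 subunits among the members did not have higher means, with Irf9 at -0.04 (SE 0.56) and Stat2 at -0.38 (SE 0.59). For Irf9, Tcf1-/- replicate 1 had 6.43 while replicates 2 and 3 had 8.22 and 8.42, around controls between 7.47 and 8.0.

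**Figure D4:**
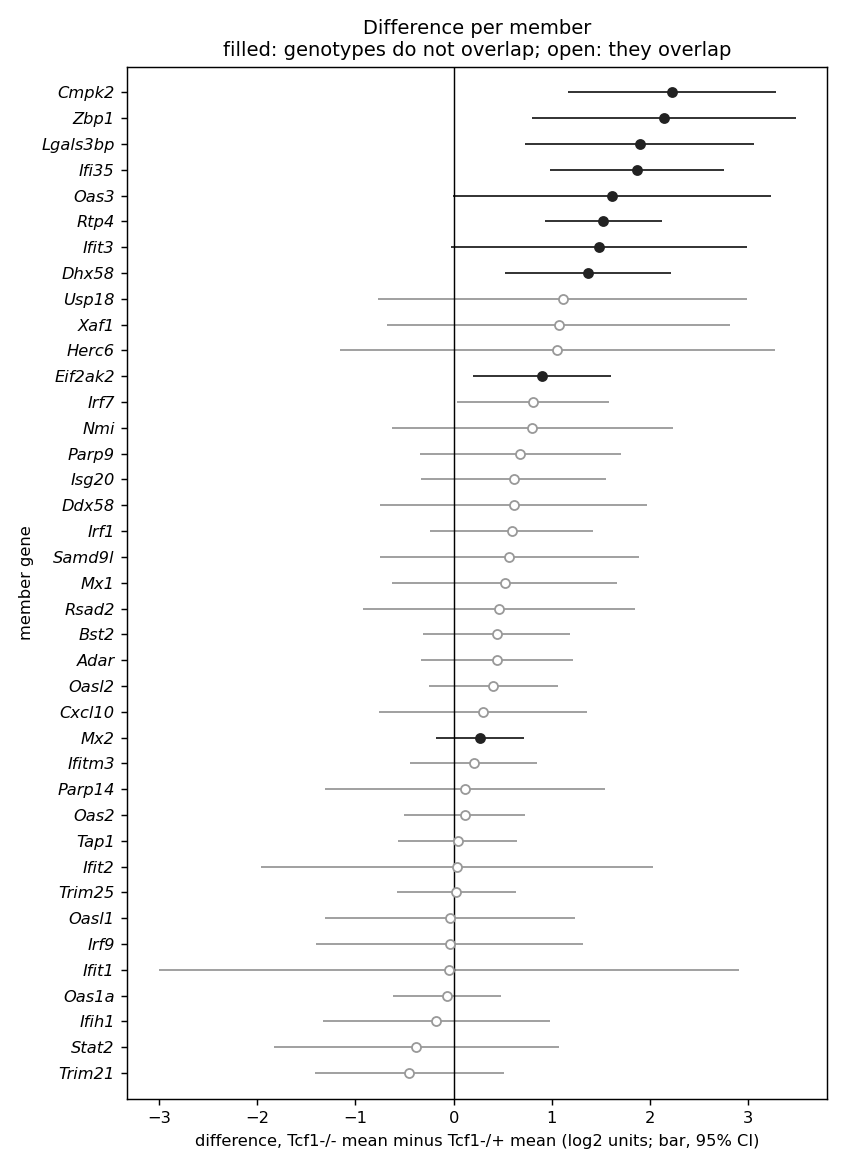
Difference of each of the 39 members (horizontal axis, Tcf1-/- mean minus Tcf1-/+ mean in log2 units, bars are 95% confidence intervals from limma), ordered by size. Filled points mark the 10 members whose arrays did not overlap between genotypes. Cmpk2 is the highest at 2.22 and Trim21 the lowest at -0.45.

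The Tcf1-/- arrays differed among themselves. Replicate 1 was the lowest Tcf1-/- array for 22 of 39 members (56.4%, against 32.3% of all genes), replicate 2 for 12 (30.8% against 31.2%) and replicate 3 for 5 (12.8% against 36.6%). For 9 members, Irf7, Irf9, Usp18, Herc6, Mx1, Ddx58, Bst2, Parp9 and Xaf1, replicates 2 and 3 lay above every Tcf1-/+ array and replicate 1 did not, which is 23.1% of members against 5.69% of all genes. Replicate 1 lay below every Tcf1-/+ array for 9 members, among them Ifit1, Ifit2, Irf9, Ddx58 and Xaf1, and this share of 23.1% is close to the 23.8% of all genes. It lay above every Tcf1-/+ array for 17 members (43.6%, against 28.8% of all genes). Replicate 2 did so for 24 (61.5% against 37.5%) and replicate 3 for 27 (69.2% against 23.7%). The median SD of a member was 0.66 within Tcf1-/- and 0.41 within Tcf1-/+, and the medians over genes with a 6-array mean above background were 0.50 and 0.41. By role, the group means did not overlap between genotypes for the sensors, oligoadenylate synthetases, restriction proteins, cofactors, and secreted and presentation members. The IFIT, ISG15-enzyme, Mx and transcription factor groups overlapped. A group mean can rest on a single member. Only Oas3 in the oligoadenylate group, Ifi35 among the cofactors and Lgals3bp in the secreted and presentation group did not overlap by themselves. The share for groups of other genes was not computed. In the IFIT group Tcf1-/- replicate 1 was at -1.41 and replicate 2 at 1.35 on the centred scale, outside the range of -0.96 to 0.25 of the controls on both sides.

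Probe sets of the same gene did not always agree. Of the 39 members, 16 had more than 1 probe set, with 27 further probe sets in all. Both genotype means of 3 of these lay under background, and of the other 24, 20 had the sign of the probe set used and 4 the opposite sign. Zbp1 was the 1 member whose second probe set also separated the genotypes, at 7.35, 8.76 and 7.84 in Tcf1-/- against 6.66, 6.11 and 6.17 in Tcf1-/+, a difference of 1.67 (SE 0.40). The second probe set of Cmpk2 had nearly the same 6-array mean as the first, 7.28 and 7.29, but differed by 0.22 (SE 0.36). For Rtp4 the other probe set differed by 0.04 (SE 0.21) at a mean of 7.18, for Ifi35 the others differed by 0.04 (SE 0.48) and 0.78 (SE 0.60), for Dhx58 by 0.44 (SE 0.89) above background, and for Eif2ak2 by 0.39 (SE 0.30) and -0.20 (SE 0.90). The sizes given for these 5 genes therefore rest on 1 probe set each. The probe sets used for Ifi35 and Trim25 are of the type that can match transcripts of more than 1 gene. All 4 probe sets of Herc6 had higher Tcf1-/- means, between 0.61 and 1.22, and all 3 of Rsad2, between 0.30 and 0.73. Which parts of a transcript the probe sets read was not tested.

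**Figure D5:**
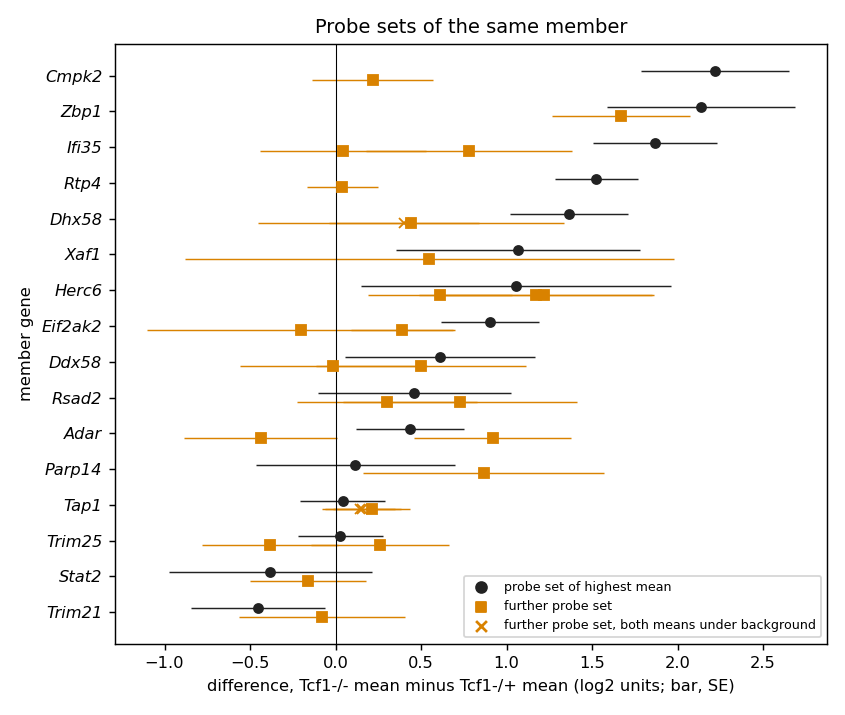
Difference between genotypes (horizontal axis, log2 units, bars are SE from limma) for every probe set of the 16 members with more than 1, with the probe set of highest mean in black and further ones in orange. The Zbp1 probe sets lie at 2.14 and 1.67, while the further probe sets of Cmpk2 and Rtp4 lie at 0.22 and 0.04.

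The pathway around the members was described from 8 lists, of which 118 genes were measured. At an unadjusted p under 0.05 there were 13 genes (11%), all higher in Tcf1-/-, where 3.38% of all genes were higher at that level, and 0 passed the adjusted threshold in limma. Of the 5 interferon genes measured, 4 had means under background in both genotypes, among them Ifnb1 and Ifng. Ifna1 was at 7.12, 7.01 and 6.46 in the Tcf1-/- samples against 7.65, 7.08 and 6.48 in Tcf1-/+, a difference of -0.21 (SE 0.36).

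Of the 6 receptor genes, 1 had an unadjusted p under 0.05 in limma (16.7%, where 3.38% of all genes were higher at that level). Ifngr2, the signalling chain of the interferon gamma receptor, was at 8.69, 7.99 and 8.27 in the Tcf1-/- samples against 7.12, 6.45 and 7.35 in Tcf1-/+. The difference was 1.35 (SE 0.32) without overlap, though its other probe set differed by -0.22. Ifngr1 differed by 0.34 (SE 0.34), Ifnar1 by -0.01 (SE 0.38), with 0.52 on its other probe set, and Ifnar2 by 0.38 (SE 0.40). The other probe sets of Ifnar2 differed by 0.86 and, on the dimmest, by -1.75. Of 11 signal transducers 0 had an unadjusted p under 0.05 in limma, where 3.38% of all genes were higher and 3.4% lower. In so short a list a count of 0 is near these shares. Jak1 differed by -0.26 (SE 0.41), with 0.24 and -0.85 on its other probe sets, and Tyk2 by 0.24 (SE 0.63). Irf2, a relative of Irf1 that can repress its targets, did not overlap, at 0.97 (SE 0.50), and Irf8 differed by -1.17 (SE 0.55), with 0.26 on its other probe set. Of 11 sensors and adaptors, 0 had an unadjusted p under 0.05 in limma, which is again near the shares of all genes. Aim2, a DNA sensor, differed by 0.76 (SE 0.47), the kinase gene Irak1 by 0.39 (SE 0.27) and the adaptor gene Traf6 by -0.99 (SE 0.59), while some other probe sets of Irak1 and Traf6 had the opposite sign and some the same.

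Among 14 negative regulators and nucleases, Cish, a cytokine-induced inhibitor, was at 7.51, 8.30 and 7.03 in the Tcf1-/- samples against 6.23, 6.53 and 6.48 in Tcf1-/+, a difference of 1.20 (SE 0.35) without overlap. Socs1, the main inhibitor of interferon receptor kinases, differed by 0.50 (SE 0.33), Rnaseh2c, a subunit of RNase H2, by 0.88 (SE 0.42) and Pias4 by -0.32 (SE 0.24), the last without overlap. Another probe set of Pias4 above background differed by 0.12.

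The class I presentation genes had higher Tcf1-/- means for 8 of 11 (72.7%, against 54.3% of all genes), and 4 of the 11 did not overlap between genotypes (36.4%, against 7.22%). H2-D1, a class I heavy chain, was at 12.75, 12.83 and 12.88 in the Tcf1-/- samples against 11.84, 12.45 and 11.86 in Tcf1-/+. Its difference was 0.78 (SE 0.24), and 7 of its 8 other probe sets had the same sign. Tapbp, the loading factor tapasin, differed by 0.64 (SE 0.22), with 0.14 on its other probe set, the transactivator gene Nlrc5 by 0.88 (SE 0.36) and B2m, the light chain, by 0.33 (SE 0.20). B2m, Nlrc5 and Tapbp also did not overlap. Class I heavy chain genes are near copies of one another, so the probe sets may read more than 1 of them.

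Targets that respond mostly to interferon gamma had higher means for 12 of 14 (85.7%, against 54.3% of all genes), with a median of 0.78. Igtp, an immunity-related GTPase of the vacuole response, was at 9.64, 12.33 and 10.07 in the Tcf1-/- samples against 8.50, 8.99 and 8.87 in Tcf1-/+, a difference of 1.89 (SE 0.71). Irgm1, a regulator of the same family, was at 7.86, 8.91 and 8.04 in the Tcf1-/- samples against 7.31, 7.10 and 6.72 in Tcf1-/+, a difference of 1.22 (SE 0.34). Iigp1 differed by 3.36 (SE 1.10) and by 2.15 (SE 0.48) on its other probe set, with a Tcf1-/+ mean under background. Igtp and Iigp1 were each highest on Tcf1-/- replicate 2, at 12.33 and 10.75.

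A further 46 interferon-stimulated genes that are not members had a median difference of 0.17, with 32 higher and 14 lower. Of the 46, 6 had an unadjusted p under 0.05 in limma, all higher, where 3.38% of all genes were higher at that level. The genotypes did not overlap for 5 of the 46, all higher, against 7.22% of all genes. Epsti1 was at 9.56, 9.44 and 9.43 in the Tcf1-/- samples against 8.40, 8.29 and 7.88 in Tcf1-/+, with a difference of 1.29 (SE 0.22), though its 3 other probe sets differed by 0.33, 0.61 and -0.47. Ifi204, a DNA sensor of the PYHIN family, was at 5.04, 7.56 and 6.09 in the Tcf1-/- samples against 3.35, 3.66 and 3.54 in Tcf1-/+, a difference of 2.72 (SE 0.62) from a Tcf1-/+ mean under background. Tdrd7, an inhibitor of autophagy in virus infection, differed by 1.02 (SE 0.25). The share of these genes that were higher, 69.6%, lay between that of the members and that of all genes.

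Markers of other cell types were read on the same arrays. For NK and innate lymphoid cells, 14 of 16 markers were measured and 10 had higher Tcf1-/- means. The log2 of their summed level lay between 13.51 and 14.40 on the Tcf1-/- arrays and between 11.62 and 12.34 on the Tcf1-/+ arrays. Gzmb, Id2 and Icos differed by 4.06, 3.19 and 3.22. In the other direction Klrd1 differed by -1.49 without overlap, Nkg7 by -0.67 and Eomes by -0.75, and the means of Ncr1 and Tbx21 lay under background in both genotypes. The 12 progenitor markers had a summed level of 13.59 to 13.82 against 14.00 to 14.10, also without overlap, with Cd34 at a difference of -1.24. For plasmacytoid dendritic cells, which hold a high level of interferon-stimulated genes, 8 of 11 markers were measured, with a summed level of 11.16 to 11.47 in Tcf1-/- and 10.98 to 11.43 in Tcf1-/+. Siglech, their surface lectin, differed by 0.06 (SE 0.27), and both means of Spib lay under background. For macrophages and monocytes, 11 of 13 were measured, with summed levels of 10.80 to 11.87 and 10.81 to 12.36, and both means of Adgre1 and Cd14 lay under background. Dendritic markers lay at 10.22 to 12.41 and 10.50 to 12.83. On the summed level, neutrophil, B-lineage, erythroid, mature T-cell and stromal markers overlapped between genotypes. The neutrophil sum rests mostly on Mpo, at 13.08 in Tcf1-/- and 13.15 in Tcf1-/+. By count, 8 of 9 neutrophil, 6 of 8 B-lineage and 5 of 6 erythroid markers had higher Tcf1-/- means. So did 4 of 8 mature T-cell and 7 of 7 stromal markers, where 54.3% of all genes did. Both means lay under background for 3 B-lineage and 2 stromal markers. The part of the NK and innate lymphoid, progenitor and other markers in the differences of the interferon-stimulated genes was not tested.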

How the data were processed

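Log2 expression values per probe set were used as deposited by the authors. Their summarization and normalization are not given in the sources used here, and the log2 scale was read from the values (2.15 to 14.8, array medians 5.80 to 5.87). Of 45101 probe sets, 64 controls were left out. The annotation gave 1 symbol to 34945 probe sets, several to 932 and no name to the other 9160. The identifiers of all 39 members were found in the RefSeq table of GRCm38.p6. Background was taken from 27 control probe sets of Bacillus subtilis, while 18 controls from E. coli and phage, which are spiked and had 10.4 at the lowest, were not used. Genotypes were compared over all 6 arrays with limma 3.58.1 in R 4.3.3 (lmFit, eBayes, two-sided, no covariate), with Benjamini-Hochberg adjustment over 45037 probe sets and a threshold of 0.05. The number of arrays limits the precision.

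Named were members whose genotypes did not overlap above background, the 10 of smallest unadjusted p, the other members by difference, and up to 3 genes per pathway list besides fixed regulators. Other genes were chosen after their values were seen. The members and lists were chosen with earlier results of these data known. Alternatives were 18 settings of scaling, filter, floor, weights, probe set, covariate, moderation, block and arrays left out. No deposited column was left unused (0).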

Additional observations from a re-analysis of the deposited data

How the results depend on the processing

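Of the 39 members, 21 kept their sign in every one of the 18 alternatives that gave them a value. The other 18 turned in at least 1. Among the 21 were the 8 with an unadjusted p under 0.05 in limma. All of these 8 but Irf7 had genotypes that did not overlap, so leaving out arrays could not turn their sign. Their lowest differences in any alternative ranged from 0.04 for Rtp4 to 1.67 for Zbp1. The lowest adjusted p of a member in any alternative was 0.349, so 0 members passed in each. Deviations of same-numbered arrays correlated by 0.03, 0.04 and 0.01, so the numbers were not taken to pair arrays. With the replicate block, 9 members had an unadjusted p under 0.05 in limma in place of 8. The share of all genes at that level was not computed with the block, so this count has no reference. Leaving out 1 array gave 6 to 14 such members, where 2.62% to 4.02% of all genes were higher at that level, and 12 to 19 members that did not overlap in the higher direction, where 11.1% to 15.7% of all genes did, with 14 and 19 without Tcf1-/- replicate 1, and 0 to 2 in the lower direction. With the probe set of second highest mean, held by 16 members, 14 had higher means. Of these 16, only Zbp1 had an unadjusted p under 0.05 in limma, and only Zbp1 did not overlap. On probe sets of highest mean, 54.3% of all genes had higher means and 3.38% were higher at that p. There 7.22% of all genes did not overlap in the higher direction. The shares of all genes on their second probe sets were not computed. On the 3 arrays of low Y-linked signal the median was 0.16 and the module difference 0.26, with 19 members not overlapping in the higher and 11 in the lower direction, where 36.2% and 31.6% of all genes did. There 2 members with an unadjusted p under 0.05 were lower, against 3.47% of all genes, and these p-values assume that the single Tcf1-/- array varies as the 2 Tcf1-/+ arrays do. Fewer arrays by themselves separate more genes. For the other changes the cause was not tested. Adding Y-linked signal as a covariate, the module difference was 0.56. Signal near background limits Mx2, Oasl1 and Cxcl10.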
